A study of Homo sapiens with 6 samples.

Results

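The data describe 10 genes of the ERBB growth factor system in SKOV3 cells: the 4 receptors EGFR, ERBB2, ERBB3 and ERBB4, the 5 ligands AREG, EREG, HBEGF, TGFA and NRG1, and the receptor inhibitor ERRFI1. Every probe set (a group of short oligonucleotides that reads a transcript together) whose platform annotation gave one of these symbols alone was taken, which gave 37 of 54675 probe sets on the array. They named 9 of the 10 genes. AREG was named alone by no probe set in the annotation used and has no value here. SKOV3 is an established human ovarian cancer cell line whose labels call it high-grade serous. The cells, grown in RPMI1640 with fetal bovine serum, received either the negative control precursor miRNA (3 arrays) or the miR21 precursor, dosed at 5 nM (3 arrays). Total RNA taken after 24 h was read on U133 Plus 2.0 arrays, 1 for each of the 6 samples. Untransfected SKOV3 cells were not analysed here, and both groups carry a transfected precursor. The sample titles number the arrays of each group 1 to 3.

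The ERBB receptors are membrane tyrosine kinases that signal as dimers through the Ras and ERK cascade and through PI3K and AKT. Their ligands are made as membrane-bound precursors and are released by ADAM proteases: EREG, AREG, HBEGF and TGFA bind EGFR, EREG and HBEGF also bind ERBB4, and NRG1 binds ERBB3 and ERBB4. ERBB2 has no known ligand of its own and acts as the partner of the others, and SKOV3 is widely used as a line with an amplified ERBB2 gene. ERRFI1 (also called MIG6) binds the kinase domain of the receptors, inhibits it, and is itself induced by receptor signalling.

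The transfected precursor carries the mature miR-21. Its sequence is shown because its seed, the bases 2 to 8 in capitals, is the part that pairs with target transcripts (RefSeq, GRCh38.p14, chr17:59841273-59841294, plus strand).
hsa-miR-21-5p: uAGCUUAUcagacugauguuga
Transcript sequences were not used here, so seed matches in the ERBB transcripts were not searched.

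Of the 9 measured genes, the ligand gene NRG1 (log2 difference of miR21 minus control 0.68, SE 0.37, n = 3 arrays per group), the receptor gene ERBB4 (0.61, SE 0.37), ERBB2 (0.36, SE 0.31), the inhibitor gene ERRFI1 (0.35, SE 0.42) and ERBB3 (0.33, SE 0.47) had positive differences. The ligand gene EREG had a mean difference of 1.84 (SE 1.31) between dim signals. Its control mean, log2 5.28, lay below the filter on dim genes, log2 6.03, so it was tested only through its miR21 arrays, and the filter favoured that direction. TGFA (0.14, SE 0.62), EGFR (0.03, SE 0.44) and HBEGF (-0.08, SE 0.30) lay near 0. None of the 9 passed limma at an adjusted p of 0.05 over the 12206 genes tested (adjusted p = 0.9999 for each), where 0.00% of all genes passed. Before adjustment 0 of the 9 and 2.44% of all genes had a p under 0.05. The groups overlapped for all 9, and did not for 6.65% of all genes. Each gene is given here by its probe set of highest mean signal. The median log2 difference of the 9 was 0.35, against -0.01 over all tested genes, and over all 37 member probe sets it was 0.14, with 21 means higher and 16 lower.

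Arrays of the same replicate number deviated together, so each member was also compared within the numbers. With the replicate number as a block in limma, 0 of the 9 genes passed after adjustment, and 0.0328% of all genes did. Before adjustment, 4 of the 9 members had a p under 0.05 in this fit, each with the higher mean after miR21: ERBB4 (unadjusted p of 0.00651, adjusted p of 0.141), ERRFI1 (0.0313 and 0.210), NRG1 (0.0446 and 0.239) and EREG (0.00424 and 0.128), the last in the direction that the filter favoured. Over probe sets the same fit also held 2 of the members' probe sets on the lower side at that level, 233498_at of ERBB4 (-0.66, adjusted p of 0.301) and the dim 1565483_at of EGFR (-2.06, adjusted p of 0.396). Over all genes 20.1% reached that level, 9.81% on the higher side. In absolute size, though not as a ratio, the block narrowed the SE most for EREG, from 1.31 to 0.45, and next for TGFA, from 0.62 to 0.18.

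**Figure D1:**
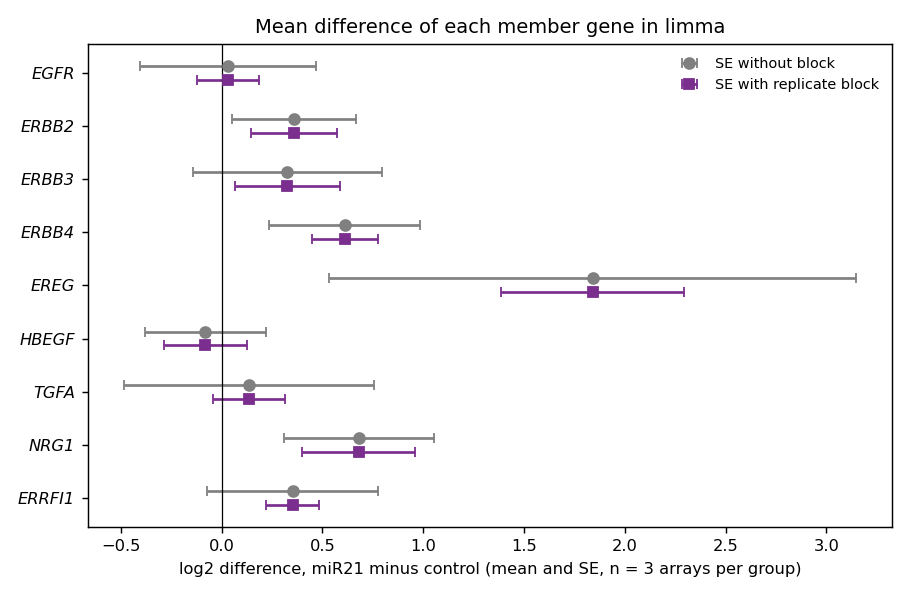
Mean log2 difference of miR21 minus control for the 9 measured genes (vertical axis) with the SE from limma without the replicate block (grey circles) and with it (purple squares), n = 3 arrays per group. EREG has the largest difference, at 1.84, and the widest interval without the block, while HBEGF and EGFR sit beside 0.

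Among the ligands, EREG (epiregulin) was read by 2 probe sets. In replicate numbers 1, 2 and 3, the order used for every set of signals here, probe set 205767_at read 124, 29.9 and 15.7 with the control and 824, 116 and 27.9 with miR21. It was higher with miR21 in each number, by 2.73, 1.96 and 0.83 on the log2 scale, while the groups overlapped: the array of number 1 was by far the brightest of each group. The second probe set, 1569583_at, read 118, 39.5 and 6.03 with the control and 182, 187 and 17.5 with miR21. It too was higher in all 3 numbers (0.63, 2.24 and 1.53, mean 1.47, SE 1.28), although its mean lay below the filter, a signal of 65.5. Both EREG probe sets thus gave the same order within every number. MAS5 signals this dim are noisy on the log scale. In both probe sets the control arrays 2 and 3 and the miR21 array 3 lay below the filter, so number 3 compared signals below it. An exact two-sided permutation test over the 6 arrays gave p = 0.5 for 205767_at, and 3 arrays against 3 cannot give less than 0.1. With 1 array left out at a time, or both arrays of 1 number, the difference lay between 0.55 and 3.00.

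The 250 bases before the EREG start site are printed together with those of ERRFI1, the other member whose probe sets all read higher in every number (RefSeq, GRCh38.p14; EREG chr4:74364895-74365144, plus strand; ERRFI1 chr1:8026310-8026559, minus strand). Capitals mark matches, on either strand, to a TATA box (TATAAA), an AP-1 site (TGANTCA), a cAMP response element (TGACGTCA), an ETS site (CCGGAAGT), a GC box (GGGCGG) or a CCAAT box (CCAAT).
EREG upstream: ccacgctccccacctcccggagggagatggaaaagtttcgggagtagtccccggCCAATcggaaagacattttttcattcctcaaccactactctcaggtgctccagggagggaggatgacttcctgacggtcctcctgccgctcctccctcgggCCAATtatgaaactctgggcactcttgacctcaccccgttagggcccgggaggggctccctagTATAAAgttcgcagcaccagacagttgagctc
ERRFI1 upstream: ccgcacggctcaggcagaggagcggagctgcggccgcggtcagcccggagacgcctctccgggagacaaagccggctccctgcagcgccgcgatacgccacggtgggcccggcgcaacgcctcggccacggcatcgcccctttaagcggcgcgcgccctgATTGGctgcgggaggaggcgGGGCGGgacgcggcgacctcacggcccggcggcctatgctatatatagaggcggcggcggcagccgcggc
The EREG window held a TATA box that begins 32 bases before the start and 2 CCAAT boxes, which begin 95 and 196 bases before it. The ERRFI1 window held a CCAAT box, on the opposite strand, and a GC box, beginning 90 and 70 bases before the start. Neither window held the letters of the AP-1, cAMP response or ETS motif. Of 35116 upstream windows of this length, 10.7% held the TATA letters, 32.0% the CCAAT letters, 42.6% the GC box, 6.57% the AP-1 letters, 3.42% the ETS letters and 1.65% the cAMP response element. A match describes the letters only.

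NRG1 (neuregulin 1), which has many isoforms, was read by 6 probe sets, 5 of them above the filter. The brightest, 206343_s_at, read 995, 1155 and 1583 with the control and 1914, 2908 and 1343 with miR21. It was higher in numbers 1 and 2 (0.94 and 1.33) and lower in number 3 (-0.24), and the groups overlapped through the arrays of number 3. The probe set 206237_s_at went the other way in all 3 numbers, by nearly the same amount (-0.34, -0.32 and -0.32), with signals of 191, 265 and 623 with the control and 152, 212 and 498 with miR21. The probe set 208230_s_at was also lower in each number (-0.42, -1.67 and -0.24), with control signals of 143, 91.6 and 199.7 and miR21 signals of 106, 28.7 and 169.6. The means of the remaining probe sets were -0.41 (208241_at), -0.32 (208232_x_at) and 0.62 for the 1 below the filter. The direction for NRG1 therefore depended on the probe set, and the mean of all 6 differed by -0.09. The files do not say which isoforms the probe sets read.

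TGFA (transforming growth factor alpha) had 1 of its 3 probe sets above the filter. 205016_at read 1826, 633 and 461 with the control and 1759, 634 and 635 with miR21. Numbers 1 and 2 were level (-0.05 and 0.0011) and number 3 was higher by 0.46. In both groups the array of number 1 was by far the brightest. The other 2 probe sets, with signals between 9.83 and 209, had mean differences of 0.44 and 0.06 and mixed signs across the numbers.

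HBEGF (heparin-binding EGF-like growth factor) showed the narrowest range with miR21 of the 9 genes. Its brightest probe set, 203821_at, read 347, 494 and 412 with the control and 390.4, 398 and 385 with miR21, so the SD of the log2 signal was 0.25 over the control arrays and 0.02 over the miR21 arrays. The differences were 0.17, -0.31 and -0.10 by number. A second probe set above the filter, 38037_at, read 241, 358 and 200.2 with the control and 220.0, 382 and 205 with miR21 (mean difference -0.0018, SE 0.45). The 2 probe sets below the filter had signals of 2.63 to 65.6 and mean differences of 0.16 and -0.17. Within each number the HBEGF groups thus lay closer than the EREG groups, and that contrast between the genes was not tested.

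**Figure D2:**
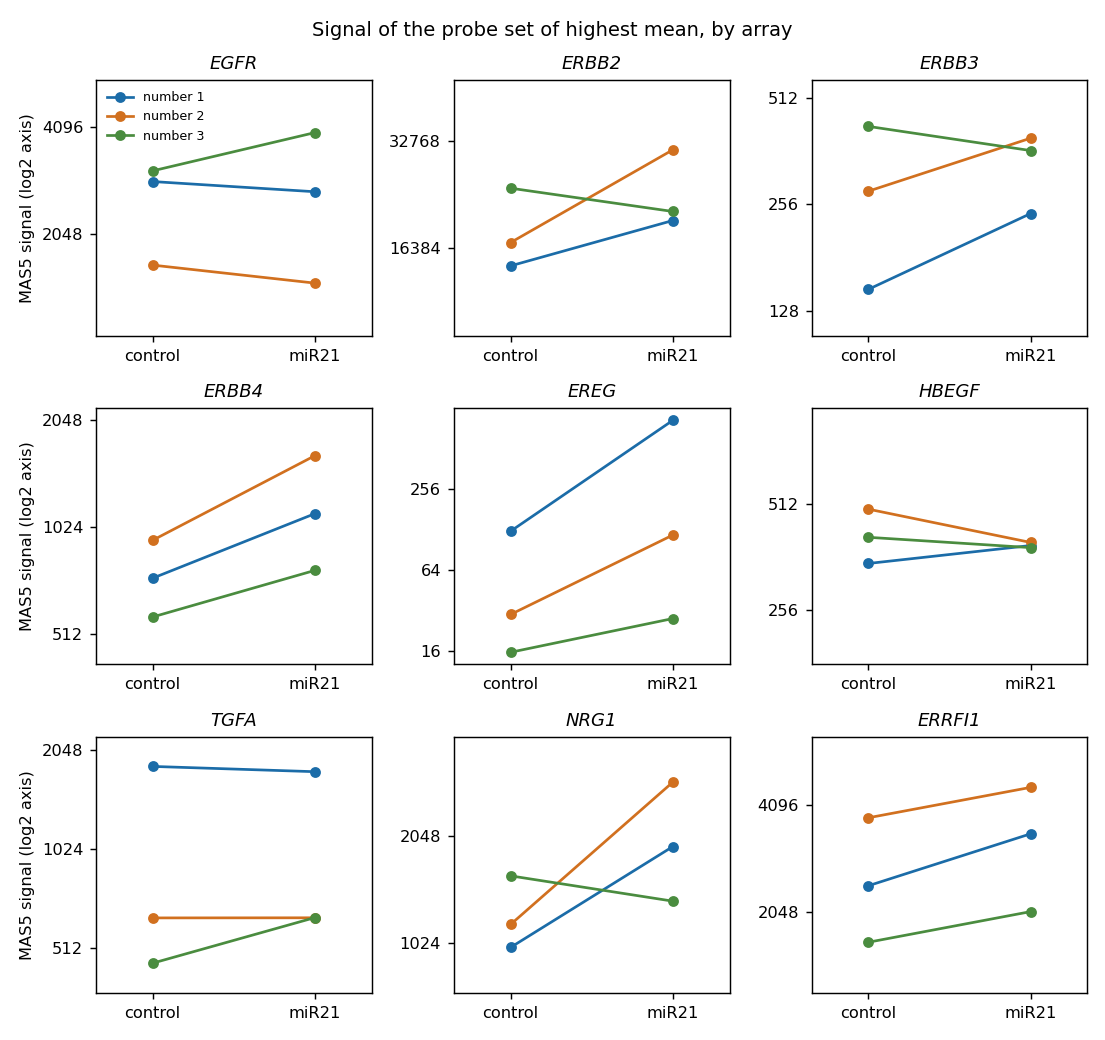
MAS5 signal (log2 axis, its own range in each panel) on the control and miR21 arrays for the probe set of highest mean of each of the 9 measured genes, with lines joining arrays of the same replicate number. For EREG, ERBB4 and ERRFI1 the miR21 end is the higher one on all 3 lines, whereas for ERBB2, ERBB3 and NRG1 it is higher for numbers 1 and 2 and lower for number 3.

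Among the receptors, ERBB2 (HER2) was read by 3 probe sets, all above the filter, with mean differences of 0.31 to 0.37. The brightest, 216836_s_at, read 14614, 17001 and 24196 with the control and 19616, 31036 and 20802 with miR21. It was higher in numbers 1 and 2 (0.42 and 0.87) and lower in number 3 (-0.22). The dimmer 210930_s_at read 229, 197 and 194 with the control and 263, 264 and 274 with miR21, and was higher in each number (0.20, 0.42 and 0.50). Its groups did not overlap, which held on the higher side for 2.38% of all probe sets. It did not pass limma (SE 0.23, adjusted p = 0.591 with the block). The third, 234354_x_at, read 981, 138 and 268 with the control and 857, 382 and 212 with miR21 and was higher in number 2 alone (1.47).

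EGFR was read by 9 probe sets, 4 of them above the filter. The brightest, 224999_at, read 2878, 1673 and 3085 with the control and 2694, 1488 and 3955 with miR21, a mean difference of 0.03 with mixed signs. The other 3 above the filter had means of -0.34 (201983_s_at), -0.33 (201984_s_at) and -0.93 (210984_x_at), and the last 2 of these were lower in all 3 numbers. The dim 210984_x_at passed the filter only through its control arrays (mean log2 6.61, against 5.69 with miR21), so the filter favoured its lower direction. 201984_s_at read 931, 1679 and 2157 with the control and 637, 1671 and 1606 with miR21. 201983_s_at read 698, 603 and 1647 with the control and 449, 424 and 1812 with miR21, so in it, as in 224999_at, number 3 gave the brightest array of each group. The 5 probe sets below the filter had signals of 2.68 to 180.3 and mean differences of -2.06 to 0.24. The mean of all 9 probe sets differed by -0.67, which turned the sign of the gene's value, and no EGFR probe set passed limma with or without the block.

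ERBB3, a receptor with little kinase activity of its own that recruits PI3K, had 3 of 5 probe sets above the filter. 226213_at read 148, 279 and 425 with the control and 241, 393 and 363 with miR21. All 3 had the same pattern of signs: higher in numbers 1 and 2 and lower in number 3 (0.71, 0.50 and -0.23 in 226213_at, 0.49, 0.63 and -0.32 in 202454_s_at, and 0.68, 1.54 and -1.20 in 1563253_s_at). The dim 1563253_s_at passed the filter only through its miR21 arrays (mean log2 6.23, against 5.89 with the control), so the filter favoured its higher mean. The control arrays of 226213_at spread over an SD of 0.77 on the log2 scale, larger than its mean difference of 0.33. All 5 ERBB3 probe sets had a mean above 0, from 0.27 to 1.69, the highest in a probe set below the filter.

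ERBB4 had 4 probe sets that did not agree. 214053_at, used for the gene, read 734, 939 and 570.4 with the control and 1116, 1625 and 772 with miR21, and was higher in all 3 numbers (0.60, 0.79 and 0.44). 233498_at, of similar brightness, read 539, 1125 and 1009.7 with the control and 315, 541 and 919.7 with miR21, and was lower in all 3 numbers (-0.77, -1.06 and -0.13, mean -0.66, SE 0.47). The dimmer 206794_at was lower in all 3 numbers as well, with 88.7, 83.3 and 89.7 against 41.7, 47.6 and 56.1, and its groups did not overlap, which held on the lower side for 3.12% of all probe sets. None of the 3 passed limma, and the mean of all 4 differed by -0.14, against 0.61 for 214053_at. No direction for ERBB4 can be given across its probe sets.

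**Figure D3:**
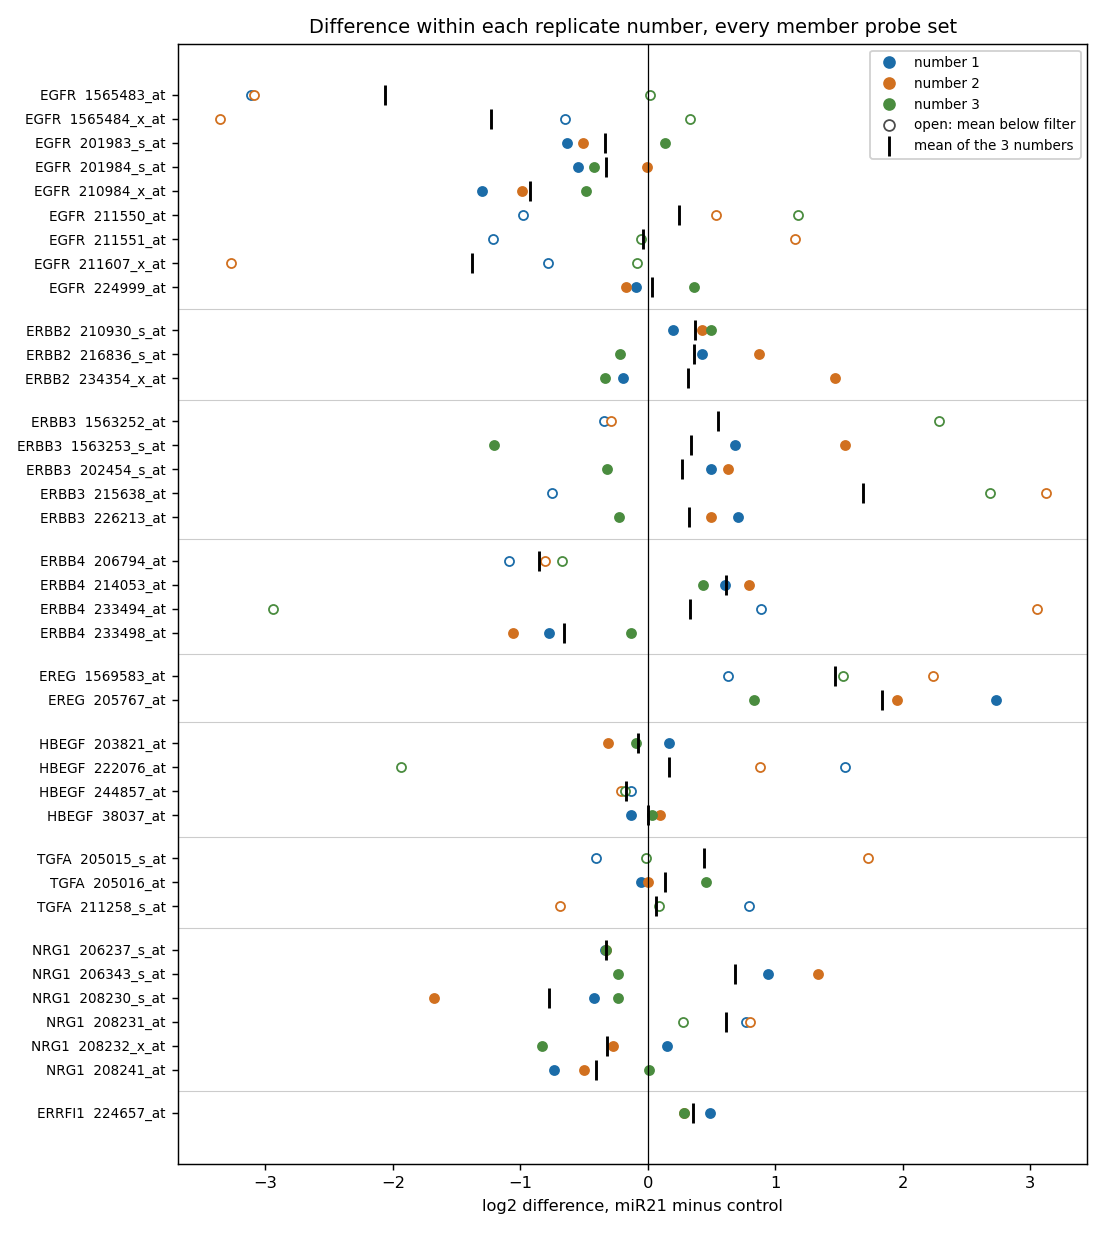
Log2 difference of miR21 minus control within replicate numbers 1, 2 and 3 (colours) and their mean (black bar) for each of the 37 probe sets, grouped by gene, with open circles for probe sets whose mean lies below the filter. The 2 EREG probe sets lie right of 0 in every number, the ERBB4 and NRG1 probe sets lie on both sides, and 7 of the 9 EGFR means lie left of 0.

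ERRFI1 was read by 1 probe set, 224657_at, at 2428, 3774 and 1682 with the control and 3400.4, 4597 and 2052 with miR21. The inhibitor's transcript was higher with miR21 in all 3 numbers, by 0.49, 0.28 and 0.29, and these differences spread less (SD 0.12) than the levels of the control arrays (SD 0.58). The groups overlapped, and number 2 was the brightest and number 3 the dimmest in both. The same order of the numbers, 2 above 1 above 3, held for ERBB4 214053_at in both groups.

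Across the 37 probe sets, 6 were higher and 8 were lower with miR21 in all 3 numbers, and 23 had mixed signs. Over all probe sets 14.4% were higher and 18.1% lower in all 3. Of the 22 member probe sets above the filter, 4 were higher and 5 lower in all 3. The shares just given include dim probe sets, and none was computed over all probe sets above the filter. These counts include 205767_at of EREG and 210984_x_at of EGFR, which passed the filter only through the group where they were higher. None of the 37 passed limma over all 54613 non-control probe sets, where 0.00% passed without the block and 0.00916% with it. Before adjustment, 7 of the 37 (5 higher and 2 lower) and 11.3% of all probe sets had a p under 0.05 with the block. Among the 9 genes, 3 (EREG, ERBB4 and ERRFI1) were higher in all 3 numbers and 0 were lower, with 20.3% and 20.9% of all tested genes in these classes.

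Number 3 differed from the others for several members. In numbers 1 and 2, 7 of the 9 genes had a positive difference in each, and in number 3, 5 had one, with medians of 0.49, 0.50 and 0.29. Without both arrays of number 3 the block fit called 5 of the 9, all higher with miR21: EREG (2.34, adjusted p = 3.39e-06, in the direction that the filter favoured), NRG1 (1.14, adjusted p = 1.90e-08), ERBB4 (0.70, adjusted p = 0.000706), ERBB2 (0.65, adjusted p = 0.000916) and ERRFI1 (0.39, adjusted p = 0.0213). The same fit called 32.8% of all genes, 15.9% as higher, and rests on 2 pairs of arrays with 1 residual degree of freedom. Without number 1 it called 0 members and 0.483% of all genes, and without number 2 it called 0 members and 0.00% of all genes. Over probe sets, the block fit without number 3 called 233498_at of ERBB4 as lower, against the gene's call. The array medians were 125 and 117 in number 1 and between 55.2 and 61.8 in the other numbers, and the part of this in the members' levels was not tested.

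The rest of the pathway was read from lists of 87 genes, of which 76 were named alone by a probe set and 68 were tested. None of the 68 passed limma, with or without the block. In all 3 numbers 23 of them (33.8%) were higher and 7 (10.3%) lower, beside 20.3% and 20.9% of all tested genes, and their median difference was 0.15 beside -0.01. The lists were chosen with earlier results of these data known, and the difference from all genes was not tested. The medians of the lists were 0.38 for 8 ligand sheddases and their iRhom partners, 0.17 for 18 genes of receptor turnover, 0.14 for 15 adaptors, 0.03 for 6 genes of the Ras and ERK cascade and -0.13 for 9 of the PI3K and AKT arm. The last 2 lists were read in part. Probe sets that named a gene alone were found for 7 of 13 cascade genes and 9 of 12 genes of the PI3K and AKT arm.

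The sheddase list thus had the highest median of these 5. ADAM17, the main protease that releases EGFR ligands, read 1056, 1066 and 923 with the control and 2558, 2190.3 and 1439 with miR21, a 1.98-fold higher signal (log2 difference 0.99, SE 0.31) without overlap of the groups. Its other 2 probe sets above the filter differed by 0.62 and 0.71. ADAM17 had an adjusted p of 0.0858 in limma with the block (unadjusted p = 0.000543) and did not pass. Among all tested genes 3.38% were higher without overlap. ADAM10, another ligand sheddase, differed by 0.76, with 1.39, 0.71 and 0.19 by number, and ADAM19 by 0.63.

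Of the ligands outside the 10 genes, betacellulin (BTC), which binds EGFR and ERBB4, was the 1 tested, at 332, 50.8 and 74.1 with the control and 1578, 190.2 and 74.9 with miR21. It was higher by 2.25 and 1.90 in numbers 1 and 2 and level in number 3 (0.02), with a mean of 1.39 (SE 1.17). BTC thus had its largest difference and its brightest arrays in number 1, as did EREG probe set 205767_at but not 1569583_at, whose largest difference was in number 2. Among the adaptors, GRB7, which binds ERBB2 and lies beside it in the genome, differed by 0.57 (0.59, 0.87 and 0.25 by number) and ERBIN, a scaffold that binds ERBB2, by 0.39. The phosphatase gene PTPN11 differed by -0.36 and SOS1, a Ras exchange factor gene, by 0.36, with other SOS1 probe sets at -0.26 to 0.07. In the cascade the kinase gene MAP2K1 differed by 0.54, the scaffold gene KSR1 by 0.51 and the ERK gene MAPK3 by -0.24. RICTOR, a subunit of the kinase complex that phosphorylates AKT, differed by 0.37, with others of its probe sets at -0.10 to 0.06. In receptor turnover the ubiquitin ligase gene CBLB differed by 0.49, the phosphatase genes PTPN12 and PTPN1 by 0.48 and -0.36, and the endocytic adaptor gene EPS15 by 0.37, with another EPS15 probe set at -0.03. None of these passed.

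Because ERBB2 is amplified in SKOV3 together with its surroundings, its neighbours on chromosome 17 were also listed. The 12 tested neighbours had a median difference of 0.15, beside -0.01 over all tested genes. In all 3 numbers 5 were higher and 1 lower, beside 20.3% and 20.9% of all tested genes. With or without the block 0 passed limma, beside 0.0328% and 0.00% of all genes. TCAP differed by 0.89 (184, 96.7 and 188 with the control, 391, 278 and 198 with miR21), GRB7, also on this list, by 0.57, PPP1R1B by 0.34 and CDK12 by 0.25, with the other 6 CDK12 probe sets above the filter at -0.30 to 0.47. STARD3 differed by -0.09, PNMT by 0.18, PGAP3 by 0.05 and MIEN1 by -0.19, and these lie close to ERBB2 as well. STARD3, PNMT, PGAP3 and MIEN1 were named after their values were seen.

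**Figure D4:**
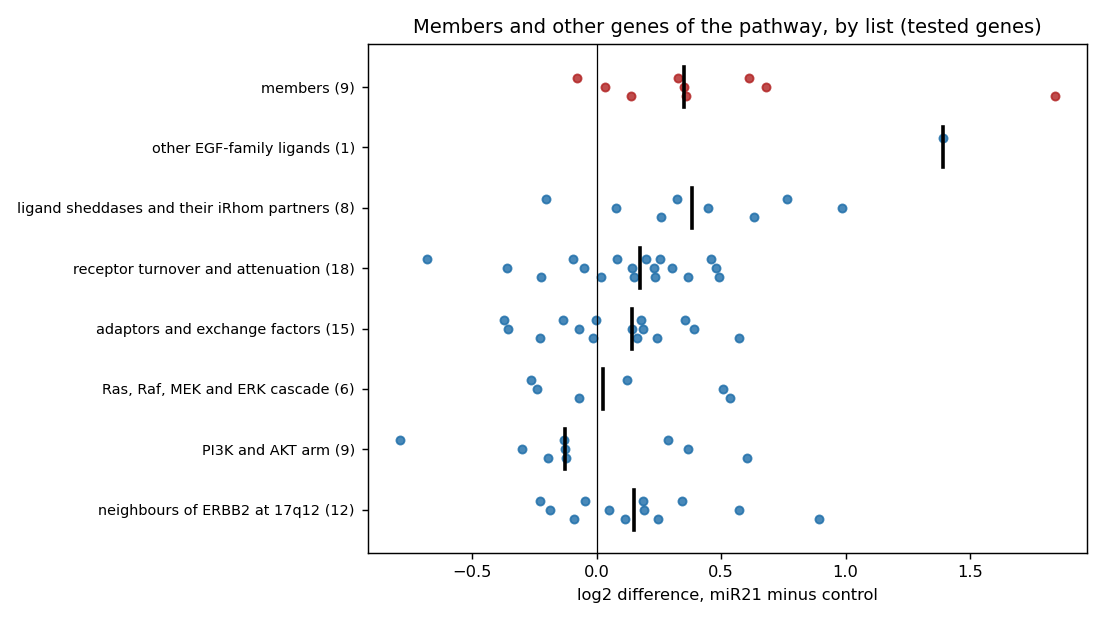
Log2 difference of miR21 minus control for the 9 measured members (red) and the tested genes of the other pathway lists (blue), with the number of genes in brackets and a black bar at each median. The members have a median of 0.35, the sheddases 0.38 and the PI3K and AKT arm -0.13, and the points of every list with over 1 gene lie on both sides of 0.

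The labelled cell type was checked against marker genes. Of 7 epithelial markers 6 lay above the filter (KRT7, KRT8, KRT18, KRT19, EPCAM and CDH1) and CLDN4 below it. Of 5 markers of Mullerian origin and ovarian carcinoma, PAX8, SOX17 and MSLN lay above it, and WT1 and MUC16, which serous carcinomas commonly express, lay below. None of 5 leukocyte markers, 1 of 4 endothelial markers (PECAM1) and 2 of 7 fibroblast markers (COL1A1 and COL1A2) lay above it. The summed fibroblast signal was 417 to 1102 with the control and 364 to 1293 with miR21.

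For likeness of pattern, the tested genes with the highest Pearson correlation of log2 signal over the 6 arrays were, for EREG, RB1CC1 (r = 0.998) and STK24 (r = 0.997), for ERBB2, FGFR4 (r = 0.997) and DPH5 (r = 0.994), for NRG1, VPS9D1 (r = 0.996) and IL20RB (r = 0.994), and for ERBB4, TPCN1 (r = 0.999) and DDX5 (r = 0.986). The values for TGFA were 0.999 with UHMK1 and EFR3A, for ERRFI1 0.993 with ZNF473 and 0.991 with KLHL29, for ERBB3 0.995 with PPL and 0.992 with WAPL, for EGFR 0.988 with HOGA1 and APPL1, and for HBEGF 0.966 with ZNF830 and 0.955 with TRIM24. Over 6 arrays that share their replicate levels, the best of 12205 genes can be expected to be high. For TGFA 94 genes, the named pair included, lay no more than 0.01 below the second value, and for the other members 2 to 29 did. The values are a description only.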

How the data were processed

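Per the submitters' processing notes the authors used MAS5, with no version or settings given there. The deposited table holds intensity per probe set on a linear scale, and every array has the same 2% trimmed mean, 500, which hides a change common to most genes. Gene symbols came from the platform annotation: 41091 of 54613 non-control probe sets have 1 symbol, and 1801 with several were not used. A gene was read by its brightest probe set (mean log2 over the 6 arrays) and tested if that mean reached the median of all probe sets, log2 6.03, which left 12206 of 19775 genes. Each probe set binds through its own oligonucleotides, so signals of different probe sets were not compared as levels.

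Log2 signals without a pseudocount were tested with limma 3.58.1 (R 4.3.3; moderated by eBayes, trend on) and Benjamini-Hochberg at 0.05, once over genes and once over all non-control probe sets, after a check on simulated data. The titles give the replicate numbers. They were taken to pair the arrays because deviations from the group means correlated at 0.899, 0.638 and 0.635 within numbers 1, 2 and 3, all over 0.1, although unlike numbers 2 and 3 also correlated (0.411 and 0.283). The labels do not state separate cultures, so a p-value covers the spread of these samples alone, which may be technical. The number of arrays limits precision. All members were named, and up to 4 genes of each pathway list that had 1 sign in all 3 numbers, by size. Members and lists were chosen with earlier results of these data known.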

Additional observations from a re-analysis of the deposited data

How the results depend on the processing

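No member gene passed limma without the block under any alternative with all 6 arrays, and leaving out 1 array gave 0 calls each time. The replicate block alone changed no call of a member or of a listed pathway gene. Without both arrays of number 3, the replicate block gave 5 called members (ERBB2 0.65, ERBB4 0.70, EREG 2.34 in the direction that the filter favoured, NRG1 1.14 and ERRFI1 0.39), and of the other lists 1 of 1 other ligand, 4 of 8 sheddases, 2 of 18 turnover genes, 5 of 15 adaptors, 3 of 6 genes of the Ras cascade, 3 of 9 of the PI3K arm and 3 of 12 neighbours of ERBB2, beside 32.8% of all genes. In that fit EGFR (-0.13) and TGFA (-0.026) changed sign, 233498_at of ERBB4 was called at -0.92 and the adaptor median was 0.081.

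With the mean of all probe sets the sign turned for EGFR (-0.67), ERBB4 (-0.14) and NRG1 (-0.090), the medians of the Ras cascade and of the neighbours were -0.21 and 0.046, and EREG and ERBB3 were not tested because the means over their probe sets fell below the filter. Centring arrays on their median gave HBEGF 0.019, its probe set 38037_at 0.10, and medians of 0.27 (turnover), 0.24 (adaptors) and 0.25 (neighbours). Quantile normalization gave 38037_at 0.054, and array weights an adaptor median of 0.042. In the block without number 2, HBEGF was 0.036, 234354_x_at of ERBB2 -0.27, 1563253_s_at of ERBB3 -0.26 and the neighbour median 0.071, and without number 1, 38037_at was 0.064.

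Leaving out 1 array moved EGFR from -0.30 to 0.41, ERBB3 from -0.081 to 0.68, HBEGF from -0.21 to 0.049 and TGFA from -0.35 to 0.72. It moved ERBB2 from 0.15 (without miR21 array 2) to 0.56, ERBB4 from 0.34 (miR21 array 2) to 0.88, NRG1 from 0.39 (miR21 array 2) to 0.95, EREG from 0.55 (miR21 array 1) to 3.00 and ERRFI1 from 0.070 (control array 3; 0.086 without miR21 array 2) to 0.67. The sign turned without control array 2 for EGFR (-0.25), HBEGF and TGFA (-0.043), without control array 3 for TGFA (-0.27), without control array 1 for ERBB3, without miR21 array 1 for EGFR (-0.019) and TGFA, and without miR21 array 3 for EGFR. Among other probe sets, 201983_s_at and 201984_s_at of EGFR went from -1.02 to 0.11 and from -0.67 to 0.13, 234354_x_at from -0.32 to 1.10, 1563253_s_at from -0.83 to 1.14, 202454_s_at of ERBB3 from -0.044 to 0.45, 38037_at from -0.28 to 0.23, 244857_at of HBEGF from -1.11 to 0.76 and 206237_s_at of NRG1 from -0.82 to 0.16. List medians ranged from 0.15 to 2.35 (BTC), 0.0093 to 0.33 (turnover), -0.11 to 0.28 (adaptors) and 0.046 to 0.27 (neighbours), and, also with both arrays of a number left out, 0.24 to 0.51 (sheddases), -0.12 to 0.14 (Ras cascade) and -0.22 to 0.021 (PI3K arm). The cause of these shifts was not tested. The signs of ERBB2, EREG and ERRFI1 held under the alternatives run for them that could change the estimate. Changing the filter or the trend setting, or adding the block with all arrays kept, leaves a gene's estimate as it was. Those settings therefore cannot test a sign. The mean of all probe sets, which turned other members, was not tested for EREG. For ERRFI1, read by 1 probe set, it could only return the same value, 0.35. The sizes did not hold: array weights gave ERRFI1 0.062 and ERBB2 0.60, and the block without number 2 gave ERBB2 0.10.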
